A study of Macaca mulatta with 8 samples.

Results

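Of 835 genes with a rhesus gene name on the array, 159 gave no spot well above background on any of 8 arrays of macaque neocortex. They were chosen by the scanner software's own call: a gene belongs here when each spot of each of its probes was called not well above background on all 4 arrays of the primary motor cortex (M1) and all 4 arrays of prefrontal area 46 (A46). The absence of a call is therefore how these genes were picked and is not a result. The other named genes comprised 540 called on every array and 136 called on some arrays. Of all 20217 probes, named or not, 15.4% met the same rule, and of the named genes 19.0% did. The series asked which genes are expressed differently in motor and in prefrontal cortex. M1 tissue came from the forelimb region of the left hemisphere and A46 tissue from both banks of the principal sulcus. Animals of both groups were rhesus macaques between 2.6 and 2.7 years old, raised in group cages without experimental treatment and perfused with ice-cold heparinised saline after an overdose of pentobarbital, and the study names 4 animals.

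A cell keeps most tissue-restricted genes off, because the transcription factors that switch them on are missing and their promoters are held in closed or repressed chromatin. Neocortex consists of excitatory and inhibitory neurons, astrocytes, oligodendrocytes, microglia and vessels, and bulk tissue RNA mixes all of them. A transcript made in a few scattered cells is diluted, so that fewer cells of a type and less RNA per cell cannot be told apart. Of 15 neuron markers in the fixed list 5 had a name, and 4 of them were called on every array and GRIK3 on 7. The kainate receptor gene GRIK1, the potassium channel genes KCNA4 and KCNC4, the astrocyte gene FGFR3 and the oligodendrocyte genes UGT8, TSPAN2 and ZNF488 were well above background on all 8 arrays, as were the erythroid globin gene HBE1, the endothelial gene ACKR1 and the muscle gene MYOT. The only choroid plexus marker with a name, OTX2, was detected on none, and no microglia, lymphocyte or meninges marker of the fixed list had a name here.

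What counts as undetected differed between arrays. The lowest background-subtracted signal that was called well above background was 6.66, 6.20, 6.44 and 24.8 scanner units on M1 replicates 1 to 4, and 6.89, 5.72, 14.02 and 14.1 units on A46 replicates 1 to 4. M1 replicate 4 and A46 replicates 3 and 4, scanned on later days than the other 5, therefore needed more signal for a call. They were also the brightest arrays over all probes. Their 75th percentiles were 2008, 1852 and 1768 units, against 1232 to 1623 units on the other 5. M1 replicate 4 detected the fewest named genes, 559, against 612 to 638 on the other M1 arrays and 596 to 631 on the A46 arrays. Leaving it out moved the count of undetected genes to 160. The number of arrays limits the precision of all values.

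**Figure D1:**
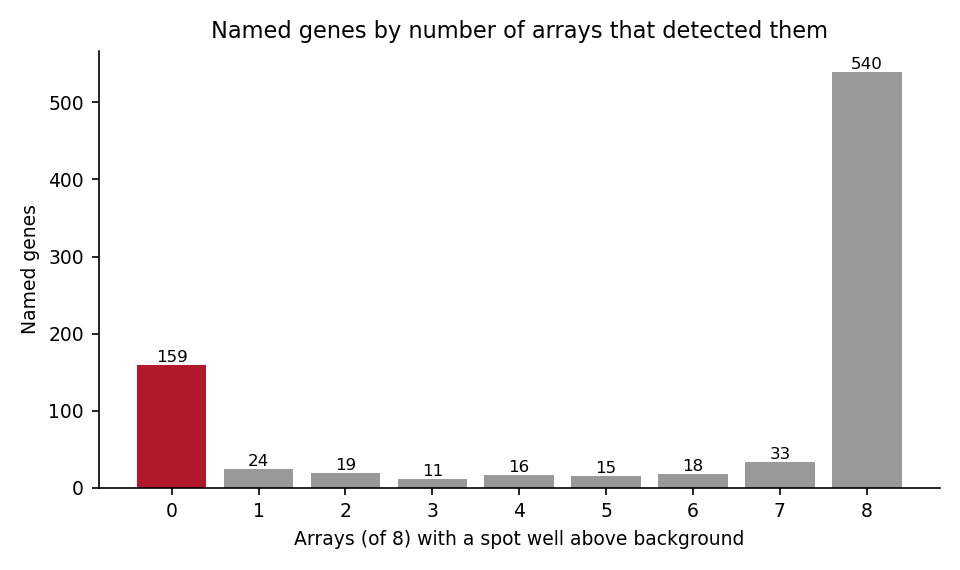
Named genes (vertical axis) by the number of arrays, of 8, on which a spot was well above background (horizontal axis). The red bar holds the 159 genes detected on no array, and 540 genes stand at the other end.

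As a set, the spots of the undetected genes had higher medians than the negative control spots. Beside the strict call, the scanner software marks a spot whose signal is significantly above its background at all, which is a weaker condition. Of the 2592 spots of the undetected genes, 738 (28.5%) carried this weaker mark. By array the share was 28.1%, 27.5%, 32.4% and 6.48% on M1 replicates 1 to 4, and 30.6%, 42.9%, 31.8% and 28.1% on A46 replicates 1 to 4. On the negative control spots it lay between 0.654% and 3.92%. The median spot of the undetected genes lay at -1.57 units on M1 replicate 4 and between 0.231 and 0.945 units on the other 7 arrays. Negative control spots had medians from -4.37 to -1.68 units. Only 16 of the 159 genes had no significant spot at all, 78 had 1 to 4, and 24 had such a mark on over 50% of their spots. The median gene had 4 significant spots, of 16 for a gene with 1 probe. By mean background-subtracted signal, 55 genes lay above the 99th percentile of the negative control spots on no array. Another 104 did so on 1 to 7 arrays and 0 on all 8. That percentile was 37.9 units on A46 replicate 1, where 3 negative control spots were called well above background. On M1 replicates 2 to 4 such control spots numbered 2, 1 and 1.

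**Figure D2:**
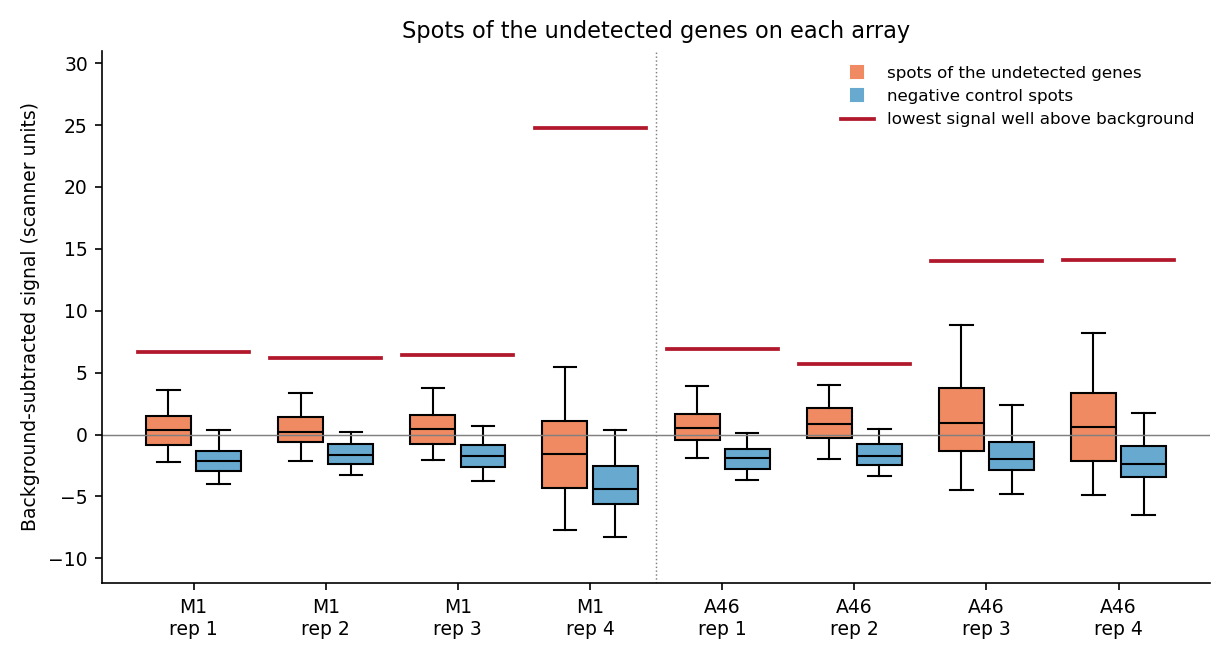
Background-subtracted signal in scanner units (vertical axis) of the spots of the undetected genes and of the negative control spots on each array. Boxes show quartiles and the median, whiskers the 5th and 95th percentiles, and the red line the lowest signal called well above background, which is highest on M1 replicate 4 at 24.8 units.

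Receptors of taste, smell and itch gave 14 of the 159 genes. Roles were given to the 159 genes alone, so sizes of role groups here and below have no share of all named genes beside them. Of 8 taste receptor genes with a name, 7 (87.5%) were undetected, and the eighth, TAS2R40, was detected on 1 array. They were TAS1R2, a subunit of the sweet receptor, and the bitter receptor genes TAS2R5, TAS2R7, TAS2R13, TAS2R16, TAS2R39 and TAS2R46. TAS2R16, a bitter receptor for plant glucosides, gave 0.659, -0.208, -0.744 and 0.151 units in M1, against -0.474, -0.842, 0.652 and -1.46 units in A46. The values of both areas lay on either side of 0 and overlapped, at -0.036 ± 0.591 units in M1 and -0.532 ± 0.888 units in A46 (SD, n = 4 each). TAS2R13 ranged from -3.58 to 0.338 units in M1 and from 0.0261 to 0.868 units in A46. TAS1R2 differed from the bitter receptors in its weak marks, with 12 of 16 spots significant against 0 to 3 of 16 in each bitter receptor gene, and ranged from 0.528 to 4.81 units in M1 and from 1.64 to 7.83 units in A46. Of the 7 named olfactory and trace amine receptor genes, 5 (71.4%) were undetected: OR4D1, OR4X2, OR51A7, TAAR1 and TAAR5. OR7D4, a receptor for the steroid odorant androstenone, was detected on 7 arrays and TAAR6 on 1. TAAR1, which senses trace amines, gave -0.233, -0.765, -0.476 and -3.11 units in M1, against -0.570, 1.83, -2.58 and -1.36 units in A46. A single A46 array was above 0. OR4D1 ranged from -1.52 to 0.109 units in M1 and from 0.162 to 2.42 units in A46, and OR4X2 from -4.90 to 0.659 and from -2.56 to 4.31 units. The itch receptor genes MRGPRX1 and MRGPRX4 of sensory ganglia had 7 and 1 significant spots of 16.

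Genes of the germ line and reproductive tract gave 21 of the 159. Among genes of sperm were PRM1, the protamine that packs sperm DNA, SPAM1, the sperm hyaluronidase, PGK2, the glycolytic kinase of sperm, SMCP of the sperm mitochondrial capsule, the testis linker histone gene H1-6, the centrin gene CETN1, the sperm tail gene CIMAP1A, SPATA4 and TKTL2. ASZ1 protects the germ line from transposons and DMC1 is the recombinase of meiosis. GPX5, ELSPBP1, RNASE9 and CST11 are genes of the epididymis. PRM1 gave -1.25, 0.388, 1.33 and 4.00 units in M1, against 0.349, -0.336, 6.03 and 6.65 units in A46. Its highest values stood on the 3 later scanned arrays, which were the brightest over all probes. SPAM1 ranged from -5.03 to 0.372 units in M1 and from -2.63 to 1.62 units in A46, and PGK2 from -7.17 to 0.404 and from -3.36 to 0.877 units. Of 20 named genes in the list of the male germ line, 7 were undetected, WFDC12 among them. Another 7 were detected on all arrays, AKAP3, CRISPLD2, DEFB126, MAGEE1, ODF1, SPAG6 and TEX29, and 6 on some. The list is not confined to the germ line, since WFDC12 had the role of skin genes. It also leaves out CETN1, CIMAP1A, TKTL2, DMC1 and ASZ1. These counts are therefore no share of germ line genes as a whole.

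Oocyte genes were represented by the NLRP family. NLRP5, NLRP8, NLRP9 and NLRP11, which belong to the maternal group of NOD-like receptors, were undetected, 4 of the 7 named genes (57.1%) in the list of oocyte, embryo and placenta. In the gene order of the assembly T2T-MMU8v2.0 they lie in 1 cluster, with 5 other coding genes between them, none of them a named gene on the array. NLRP11 gave 0.688, -1.55, 0.251 and 0.148 units in M1, against -0.0567, -0.0775, -2.76 and 5.92 units in A46. NLRP5, the gene of the MATER protein of the egg, was below 0 on all 8 arrays, from -5.32 to -0.602 units in M1 and from -7.94 to -0.294 units in A46, and had no significant spot. NLRP8 ranged from -6.45 to 1.04 units in M1 and from 0.596 to 3.06 units in A46. The inflammasome gene NLRP3, of the same family, was detected on all arrays. KLF17 and ESX1, transcription factor genes of germ cells, embryo or placenta, had 7 and 0 significant spots of 16. PAEP and BMP4 of this list were detected on all arrays.

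The immune system gave 26 genes, the most of any role, though how many named genes have that role was not counted. Of 10 named interleukin and receptor genes, 6 (60.0%) were undetected: the T helper cytokine genes IL4, IL9 and IL17A, IL26, IL36B, and the interleukin-1 receptor gene IL1R1. IL18, IL2RG, IL6R and IL7R were detected on all arrays. IL4, the cytokine of type 2 T helper cells, gave -2.22, -0.227, -1.22 and -5.32 units in M1, against -0.666, -0.344, 0.381 and 3.36 units in A46. All M1 values were below 0, and 2 of the A46 values lay among them. IL17A had 7 significant spots of 16, at -0.100 to 1.48 units in M1 and 0.795 to 4.58 units in A46, while IL1R1 had 1, at -2.50 to 0.185 and -3.02 to -0.266 units.

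In the fixed list of T, B and NK lymphocyte genes, 5 of 11 named genes (45.5%) were undetected. These were GATA3, the transcription factor of type 2 T helper cells, SLAMF6, CD1E, the natural killer and T cell receptor gene KLRG1 and LILRA3. GATA3 had 10 significant spots of 16, with 1.93, 1.81, 1.89 and 1.68 units in M1, against 1.91, -0.358, 5.64 and 4.26 units in A46. The M1 values were close together, and the A46 values lay on both sides of them. SLAMF6 ranged from -3.22 to 1.91 units in M1 and from -3.51 to 1.25 units in A46. CD1E, which handles lipid antigens in dendritic cells, was below 0 on all arrays, from -4.50 to -1.76 and from -4.49 to -1.26 units. The chemokine receptor gene CXCR3 of activated T cells had 13 significant spots, the most of the immune genes. GPR15, a homing receptor of T cells, ranged from -2.73 to 1.51 units in M1 and from -2.47 to 1.91 units in A46, and GCSAM of germinal centre B cells and TEC, a kinase of lymphocytes, had 0 and 6 significant spots.

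Undetected neutrophil granule genes were MPO, the myeloperoxidase, CTSG, cathepsin G, and the defensin gene DEFA4. MPO ranged from -5.52 to 0.620 units in M1 and from -2.74 to 1.33 units in A46, and CTSG from -3.65 to 0.903 and from -4.91 to 2.02 units. The related defensin gene DEFA1 was detected on all arrays. TLR3, the receptor for double-stranded RNA, had 9 significant spots, with 3.16, 1.33, 2.13 and -4.27 units in M1, against 1.92, 3.02, -1.46 and 2.19 units in A46. The lowest value stood on M1 replicate 4. Toll-like receptor gene TLR5 was detected on all arrays and TLR6 on 3. In the fixed list of myeloid genes and Toll-like receptors, 5 of 11 named genes (45.5%) were undetected, the others being CLEC4D and MS4A3. The group also held PF4 of platelets, PLA2G2D, C5AR2, the histamine receptor gene HRH4 of leukocytes, at 0.686 to 2.93 units in M1 and -4.41 to 2.18 units in A46, and CNR2, the cannabinoid receptor of immune cells, with 7 significant spots.

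Hormones, growth factors and their receptors gave 12 genes. All 3 named genes in the list of pituitary and gonadal hormones were undetected: PRL (prolactin), GH1 (growth hormone) and RLN3 (relaxin 3, made in a brainstem nucleus). POU1F1, the pituitary factor that drives the prolactin and growth hormone genes, was undetected too, with 3 significant spots of 16. PRL had 10 significant spots, with 3.96, 1.90, -0.427 and 4.34 units in M1, against 3.20, 4.16, 3.20 and 3.47 units in A46. Its mean was 2.44 ± 2.19 units in M1 and 3.51 ± 0.455 units in A46 (SD, n = 4 each), and the areas overlapped. GH1 was undetected on both of its probes, which had 8 and 6 significant spots of 16, and ranged from -0.463 to 0.863 units in M1 and from 0.180 to 9.04 units in A46. Growth hormone genes have near-identical copies in primates, so that the share of each copy in this signal is uncertain. RLN3 ranged from -1.31 to 2.33 and from 0.192 to 4.75 units.

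In the fixed list of hormone and neuropeptide receptors, 6 of 13 named genes (46.2%) were undetected, CCKAR, MC3R, HRH4, GPR15 and both MRGPRX genes. The noradrenaline receptor gene ADRA1B, the muscarinic receptor gene CHRM1, the dopamine receptor gene DRD2, GALR1 and GPR158 were detected on all arrays. The list does not hold every named receptor gene. The undetected genes AGTR2 and TRHR stand outside it, as does CRHR1, which was detected on all arrays. CCKAR, the cholecystokinin receptor of gut and pancreas, gave -2.52, -1.19, -0.537 and -2.87 units in M1, against -0.963, -0.520, 2.08 and 1.34 units in A46. No M1 value was above 0. MC3R, a melanocortin receptor known from the hypothalamus, and AGTR2, the type 2 angiotensin receptor, had 4 and 0 significant spots of 16. TRHR, the receptor of thyrotropin-releasing hormone, had 10. The growth factor genes BTC, FGF4 and FGF6 and the activin subunit gene INHBC had 1 to 5.

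Liver and plasma proteins gave 13 genes. F9 (coagulation factor IX), CRP (C-reactive protein), C8A of the complement attack complex, SERPINA7, which carries thyroid hormone, and TAT, which breaks down tyrosine, were 5 of the 11 named genes (45.5%) in that list. The clotting factor genes F2 and F10 were detected on all arrays. F9 gave 2.14, -0.781, -1.01 and -1.67 units in M1, against 1.15, 0.0455, -1.06 and -0.136 units in A46. The means were -0.333 ± 1.69 units in M1 and -0.0012 ± 0.908 units in A46 (SD, n = 4 each). CRP ranged from -1.53 to 0.640 units in M1 and from 0.695 to 3.35 units in A46, and TAT from -0.396 to 1.76 and from 0.950 to 4.76 units. The group also held CPB2, HABP2, PON1, UGT2B9*2, ABCC13, TM4SF4 and KMO, an enzyme of tryptophan breakdown that had no significant spot. UPB1, which degrades pyrimidines, had 15 significant spots of 16, more than any other gene with 1 probe.

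Epithelial genes of gut, pancreas, kidney and glands numbered 21. Among them were the master regulators CDX1 of intestine, PDX1 of pancreas, FOXA2 and NR5A2 of endoderm and ELF5 of glandular epithelium. Transporters and enzymes included SLC15A1, the peptide transporter of the gut, SLC13A1, the sulphate transporter of the kidney, SLCO4C1, the pancreatic potassium channel gene KCNK16, MEP1B and CTSE. Further members included LRRC19, RNF186, ANKS4B, ARL14, ESRP2, which directs epithelial splicing, TMEM207, LAD1, LACRT of tears and UPK3BL2. CDX1 had 9 significant spots of 16 and ranged from -1.02 to 4.23 units in M1 and from 1.10 to 4.50 units in A46. The fixed list of gut and secretory epithelium holds none of these 21 genes. None of its 6 named genes was undetected, GUCY2C, SLC34A1, SFTPC and LCN6 being detected on all arrays.

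**Figure D3:**
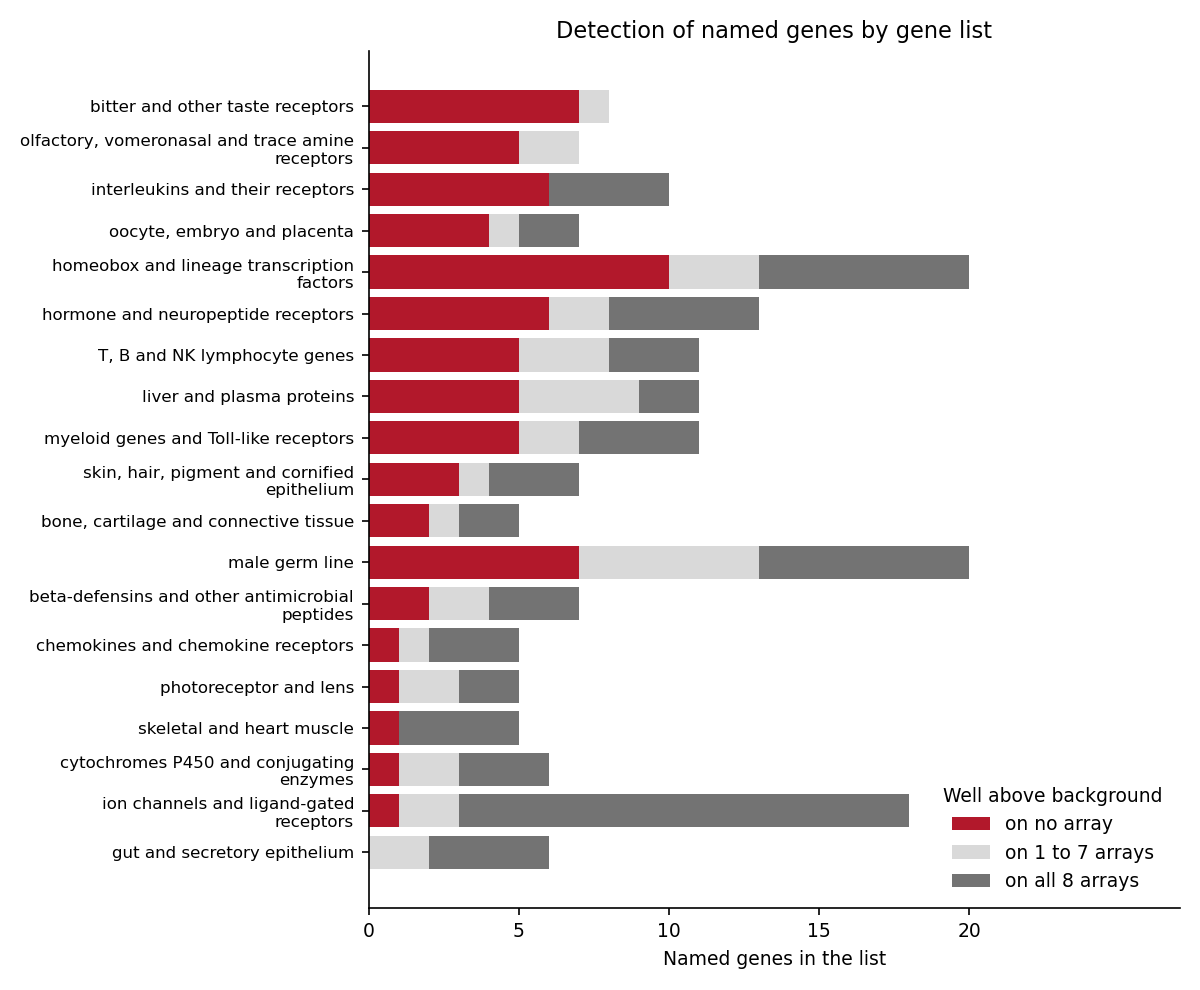
Named genes (horizontal axis) in each gene list with at least 5 of them, split by whether they were well above background on no array, on 1 to 7 arrays or on all 8. Taste receptors stand first with 7 of 8 undetected, and ion channels and ligand-gated receptors near the end with 1 of 18.

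Surface tissues, skeleton, muscle and eye gave 17 genes. In the list of skin and hair, 3 of 7 (42.9%) were undetected, the hair keratin gene KRT82, the hair keratin partner KRTAP13-2 and SERPINB5, while the tyrosinase gene TYR, KRT12 and KRTAP11-1 were detected on all arrays. KRT82 had 13 significant spots, with 2.94, 1.41, 2.55 and 6.16 units in M1, against 2.23, 1.40, 7.11 and 9.87 units in A46. The 3 later scanned arrays, which were the brightest over all probes, gave the 3 highest values. KRTAP13-2 ranged from -4.57 to -0.320 and from -0.499 to 1.45 units, and SERPINB5 from -3.76 to -0.360 units in M1 and from -2.46 to 3.00 units in A46. DSPP of dentine, ODAM of enamel, the collagenase gene MMP13 and the osteoclast proton pump gene ATP6V0D2 had 8, 0, 10 and 2 significant spots of 16. WFDC12 and C4H6orf15 completed that group. Of muscle, CSRP3, PRKAG3, TECRL and KLHL30 were undetected. PRKAG3, TECRL and KLHL30 stand outside the fixed muscle list, where CSRP3 was the only undetected gene of 5. MYF6, MYOT, TNNI3 and CASQ1 of that list were detected on all arrays. Of the eye, the cone phosphodiesterase gene PDE6C, the photoreceptor gene RP1, the lens water channel gene MIP and the crystallin gene CRYGC had 2 to 9 significant spots. RP1, MIP and CRYGC stand outside the fixed list of photoreceptor and lens, where PDE6C was the only undetected gene of 5. The crystallin genes CRYBA4 and CRYBB3 were detected on all arrays, PRPH2 on 6 and CRYGB on 1.

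Transcription factors of other lineages and stages made up 10 of 20 named genes (50.0%) in the list of homeobox and lineage factors. Beside GATA3, CDX1, PDX1, FOXA2 and POU1F1 these were NEUROG1 and NEUROD4, which drive the birth of neurons in the embryo, HOXB1 of the hindbrain, POU4F2 of retinal ganglion cells and OTX2 of forebrain patterning and choroid plexus. NEUROG1 gave -1.78, 0.507, -0.514 and -6.45 units in M1, against -0.543, 1.58, 1.20 and -0.325 units in A46. OTX2 had no significant spot, with -1.50, -0.690, 0.123 and -4.20 units in M1, against -0.830, -0.0766, -3.62 and -5.28 units in A46. The lowest values of OTX2 were on the 3 later scanned arrays. NEUROD4 had 7 significant spots and ranged from -3.89 to 2.53 units in M1 and from -0.281 to 2.83 units in A46. LBX2 was also undetected. HOXB7, SIX2, DLX3, ALX4, TWIST1, DMRTA1 and SOX13 were detected on all arrays.

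**Figure D4:**
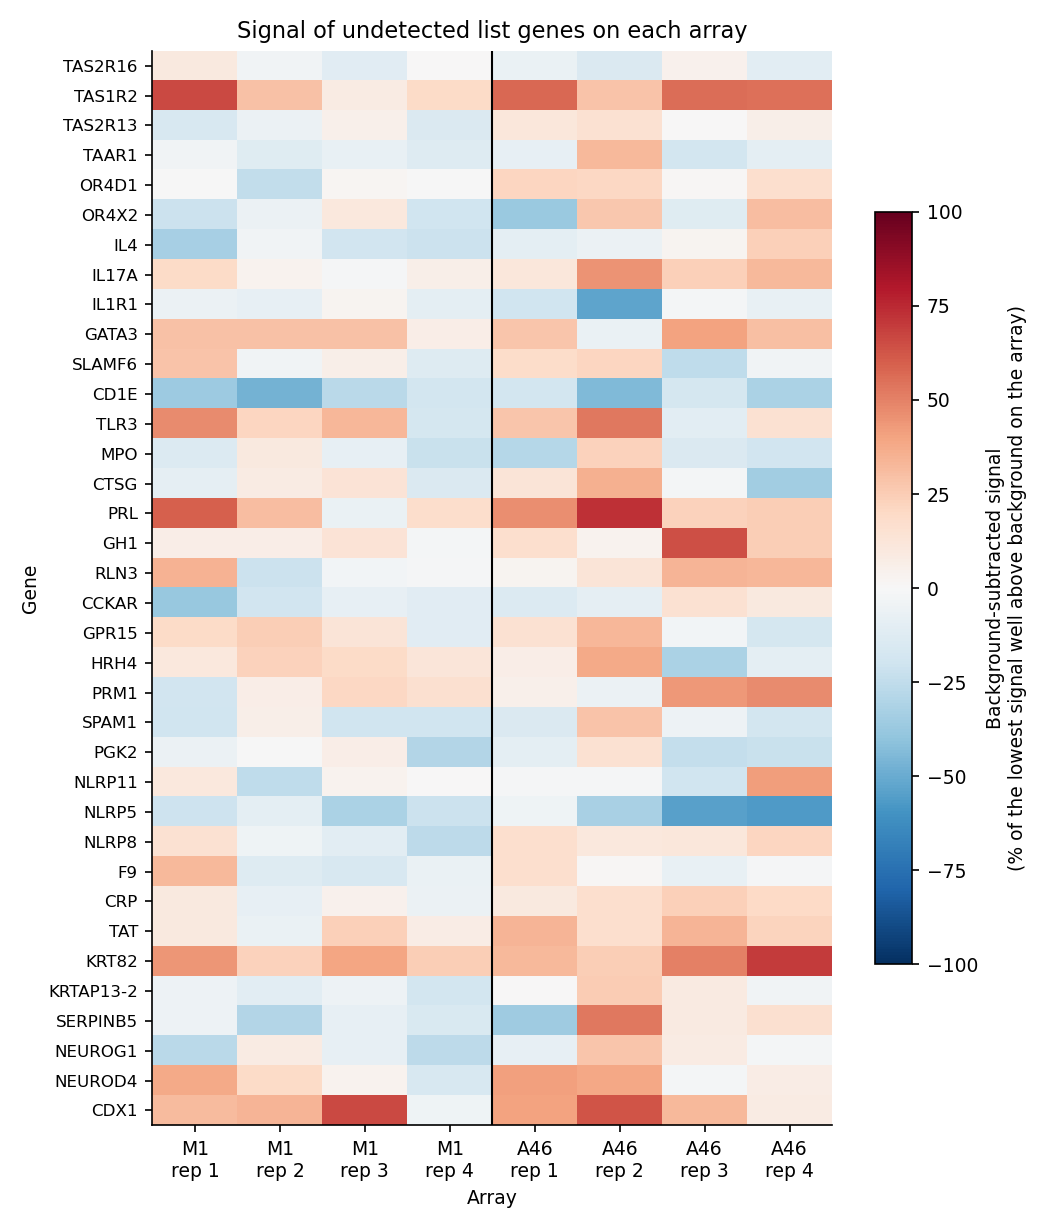
Background-subtracted signal of 36 undetected genes, the first 3 of each gene list with at least 3 undetected members, on each array, as a percentage of the lowest signal called well above background on that array. Red is above and blue below the local background. CD1E and NLRP5 are blue on all 8 arrays.

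Among the undetected genes, only SLC18A3 and NCAM2 were given the role of neuronal genes. How many named genes have that role was not counted, so whether neuronal genes were rare among the undetected was not tested. RLN3 and MC3R, known from brainstem and hypothalamus, were counted with the hormones and their receptors. The list of ion channels and ligand-gated receptors is not confined to neurons. In it only the pancreatic channel gene KCNK16 was undetected, 1 of 18 (5.56%), while 15 were detected on all arrays. GABRA6, the subunit known from cerebellar granule cells, was detected on 1 array. SLC18A3, which loads acetylcholine into vesicles of cholinergic neurons, had 2 significant spots of 16. NCAM2, an adhesion molecule known from the olfactory system and also from other parts of the brain, had 6.

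Not all of the 159 genes are tissue-restricted. A set of 17 is known from many tissues: SEL1L, which clears misfolded proteins from the endoplasmic reticulum, PTCD3 of mitochondrial translation, EXOSC2 of the RNA exosome, NVL of ribosome assembly, the chromatin and transcription genes PHF14, HMGXB4 and RREB1, the lysosomal fucosidase gene FUCA2, CHST3, which sulphates chondroitin, CAV2, STXBP4, WDR76, TRIB3, BIK, NEIL3, H2AC12 and PPARG, the nuclear receptor of fat cells and macrophages. Their median share of significant spots was 50.0%, against 12.5% to 40.6% in the other sets that were named by tissue or role. PTCD3 had 14 significant spots of 16, with 2.21, 2.83, 3.46 and 1.62 units in M1, against 5.41, 2.80, 7.80 and 4.85 units in A46. SEL1L had 2, with -0.0149, 0.740, 0.459 and -4.90 units in M1, against -1.04, -0.652, -1.57 and -2.44 units in A46. PTCD3 thus lay above 0 on all arrays and SEL1L on 2. A further 10 genes, ADAM28, ADAMTS20, C10H22orf31, DLEU7, DNAJB7, PDZD9, PLEKHG7, R3HDML, SLC25A2 and ZBED2, were placed in no set.

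**Figure D5:**
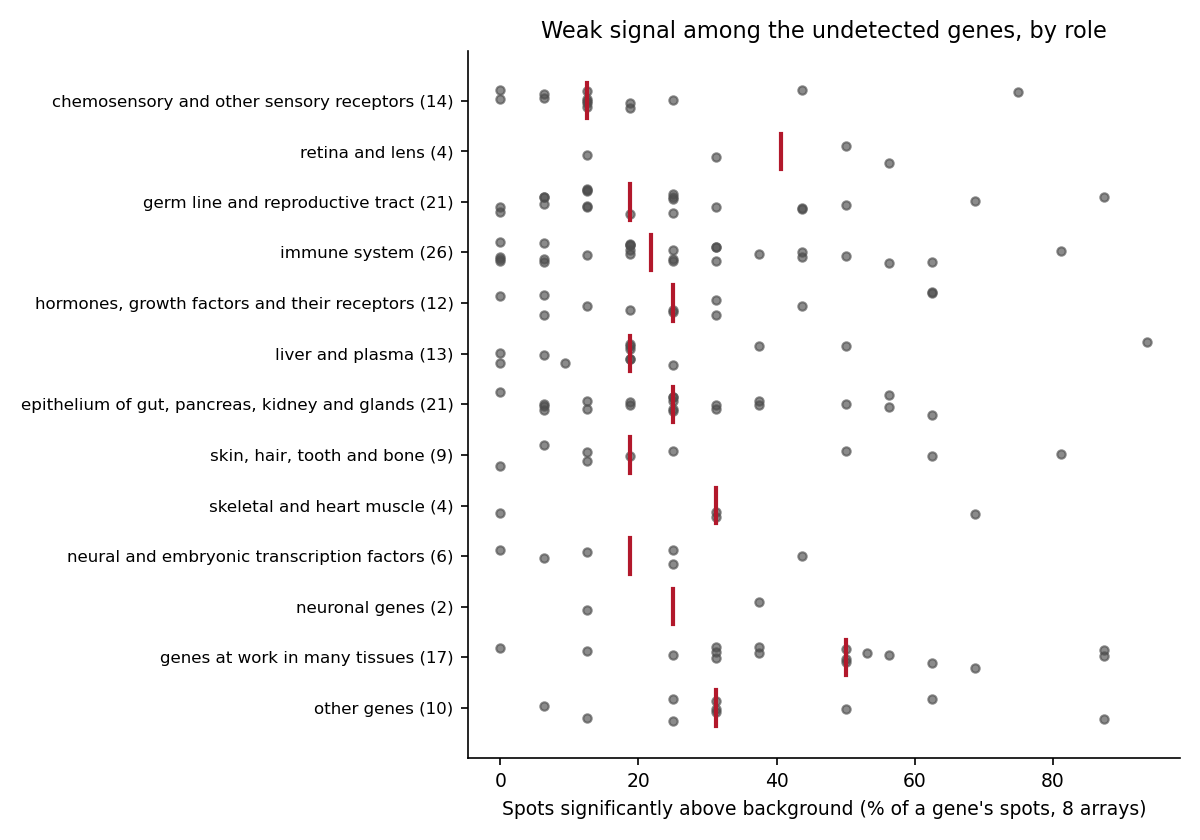
Share of a gene's spots, over 8 arrays, that were significantly above background (horizontal axis, percent) for each of the 159 genes, grouped by role with the number of genes in brackets. Points are genes, spread vertically for display, and red lines are medians, the highest being 50.0% for genes at work in many tissues.

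Genes measured with more than 1 probe show how far a missing call depends on the probe. Of 49 such named genes, 8 had at least 1 undetected probe, and in 5 of these another probe of the same gene was detected. For HIF3A, a hypoxia-inducible factor, one probe (A_01_P001745) was detected on 8 arrays and the other (A_01_P004176) on 0, both for the same transcript. NAT8, OR7D4, PLG and TLR6 were split likewise, their brightest probes being detected on 4, 7, 6 and 3 arrays. Both probes were undetected for CPB2, GH1 and PPARG. The other 156 of the 159 genes had 1 probe each. Among named probes with a reviewed RefSeq identifier 25.6% were undetected, and among those with a predicted one 16.6%.

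The genes nearest to the rule lay close on both sides of it. Inside, the most significant spots were counted for PPARG (17 of 32 spots over its 2 probes, a share of 53.1%) and UPB1 (15 of 16). C10H22orf31, CHST3, DMC1 and PTCD3 had 14 of 16 each and GH1 14 of 32, and the first 3 of these ties by symbol are shown. By signal, UPK3BL2 came closest to a call, at 85.2% of the lowest signal called on the array, against 46.6% for PPARG. PPARG gave 2.79, 1.76, 3.00 and -4.62 units in M1, against 2.20, 2.54, -2.06 and -0.912 units in A46. UPB1 gave 3.29, 4.14, 2.49 and 5.17 units in M1, against 4.63, 4.82, 8.04 and 5.48 units in A46. PPARG was below 0 on the 3 later scanned arrays, while UPB1 was above 0 on all 8. C10H22orf31 gave 3.12, 3.27, 1.59 and 2.61 units in M1, against 4.03, 2.66, 4.70 and 6.93 units in A46. CHST3 gave 2.98, 5.17, 2.77 and 5.52 units in M1, against 1.75, 3.65, 7.86 and 6.26 units in A46, and DMC1 gave 1.61, 0.678, 4.09 and 6.70 units, against 1.67, 3.60, 7.32 and 6.87 units. These 3 genes were above 0 on all arrays.

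Outside the rule, 23 named genes tied at a single spot well above background, and the first 5 by symbol are shown. AAMP owed it to M1 replicate 1, with 30.03, 3.92, 3.58 and 6.64 units in M1, against 2.89, 2.17, 6.42 and 3.09 units in A46. ADAM12 owed it to M1 replicate 2, with 2.24, 5.35, 3.56 and 5.46 units in M1, against 1.59, 3.504, 3.92 and 0.533 units in A46. ASPM, a gene of dividing progenitors, gave 1.58, 1.46, 0.172 and 0.858 units in M1, against 6.73, 0.462, 4.23 and 4.74 units in A46. C20H16orf82 gave 3.92, 3.64, 2.02 and 12.8 units in M1, against 4.73, 4.20, 13.1 and 9.31 units in A46, and CAPNS2 gave 3.91, 6.51, 2.76 and -0.132 units, against 3.71, 1.10, 0.299 and -0.0089 units. Their calls came from A46 replicate 1 (ASPM), A46 replicate 3 (C20H16orf82) and M1 replicate 2 (CAPNS2).

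The areas were then compared. Undetected were 176 named genes on all 4 M1 arrays and 170 on all 4 A46 arrays, of which 159 are shared by construction. Another 17 were undetected in M1 with a call on at least 1 A46 array, and 11 undetected in A46 with a call on at least 1 M1 array. Of these 28 genes, 0 were called on 3 or 4 arrays of the area that had a call. No named gene was thus undetected in one area and called in most samples of the other.

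Within the 159 genes no difference between the areas passed the test. In a limma fit over all 20217 probes, without a filter on dim probes, 0 of the 162 probes of these genes had an adjusted p under 0.05, where 0% of all probes passed. At an unadjusted p under 0.05 there were 2 of 162, against 6.78% of all probes. With the replicate number as a block these counts were 0 (0% of all probes) and 4 (14.6% of all probes). In a fit restricted to probes whose spots were called on each array of at least 1 area, which hold none of the 159 genes, 0.184% of 14698 probes passed, and 2.59% with the block. The processed signals that enter the fit carry little information here, since the scanner software gives a spot that is not significantly above background a value set by its error estimate, and 71.5% of the spots of the 159 genes were of this kind. No fold change is given, since both areas lay below the call.

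The smallest limma p values belonged to PPARG (one of its probes, unadjusted p = 0.0223, adjusted p = 0.598), UPK3BL2 (0.0439 and 0.707) and UPB1 (0.0584 and 0.765). With the block they belonged to LAD1, a protein of epithelial anchoring filaments (unadjusted p = 0.000317, adjusted p = 0.109), KLRG1 (0.00693 and 0.181) and UPK3BL2 (0.00987 and 0.202). LAD1 gave 2.64, 0.549, 1.33 and 1.68 units in M1, against 5.73, 2.32, 2.10 and 9.87 units in A46. The A46 value was the higher in each of the 4 same-numbered pairs, and the areas overlapped. KLRG1 gave 0.792, -0.0590, 3.52 and -6.38 units in M1, against -0.185, 0.853, -1.85 and -2.91 units in A46. UPK3BL2 gave 0.663, 0.559, 1.27 and 5.09 units in M1, against 2.50, 2.32, 11.5 and 11.9998 units in A46. Its highest values stood on the 3 later scanned arrays, which were the brightest over all probes. Without M1 replicate 4 there were 26 of the 162 probes at an unadjusted p under 0.05 in place of 2. Of the 26 probes 25 were higher in A46, and still 0 had an adjusted p under 0.05. Of all 20217 probes in that fit, 2401 (11.9%) had an unadjusted p under 0.05, against 6.78% with every array kept. Of those 2401 probes 1481 were higher in A46. The rise without this array was thus not particular to these genes. The direction turned with the scan day in the fit. As a fixed block it gave 16 probes at an unadjusted p under 0.05, 14 of them higher in M1. As a random block it gave 10, with 8 higher in M1. These were 9.88% and 6.17% of the 162 probes, against 14.2% and 16.1% of all probes. No direction is therefore given for these genes together.

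Weak marks were fewer in M1, among these genes and also over all probes. Of 1296 spots in each area, 306 were significant in M1 and 432 in A46. More significant spots were counted in M1 for 34 genes and in A46 for 82, with 43 even. No such tally by gene was made for the other named genes, so these counts have no share beside them. On the other named genes the mark stood on 94.1% to 97.6% of spots by array in M1. In A46 it stood on 96.6% to 98.2%. M1 replicate 4 supplied 21 of the 306. Without the arrays numbered 4 of both areas the spots numbered 285 in M1 and 341 in A46 of 972 each, with 44 genes higher in M1, 74 higher in A46 and 41 even. The share was lower in M1 in the same-numbered pairs 1, 2 and 4, while in pair 3 it was 32.4% in M1 and 31.8% in A46. Over all probes, spots without the mark numbered 5389, 5120, 4984 and 7120 on M1 replicates 1 to 4. On A46 replicates 1 to 4 they numbered 4990, 3845, 4819 and 5192. Fewer marks in M1 were thus not particular to these genes. The median signal of these genes, unscaled, was lower in M1 in all 4 pairs, at 0.330, 0.231, 0.464 and -1.57 units in M1, against 0.543, 0.818, 0.945 and 0.646 units in A46. The background-subtracted signals, which are not scaled between arrays, did not overlap in 9 genes, all higher in A46 (5.66% of the 159, against 2.28% of all named genes), and in 0 genes higher in M1 (against 1.56%). The 9 genes were ANKS4B, CIMAP1A, CRP, ELSPBP1, FGF6, OR4D1, SLC18A3, SLC25A2 and UGT2B9*2. By this count M1 replicates 1 to 3 also lay below every A46 value in each of the 9 genes. M1 replicate 4 was the highest M1 array in ANKS4B and ELSPBP1, at 0.290 and -0.774 units. It was the lowest in CIMAP1A, CRP, SLC18A3 and SLC25A2. Its low values also enter the count of genes higher in M1, and their part in that was not tested.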

How the data were processed

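RNA of M1 and A46 was measured on 8 single-colour (Cy3) Agilent arrays, 4 per area. Image analysis used Agilent Feature Extraction 10.7.3.1, and the probe design rests on rheMac2, per the file headers. The deposited scanner files hold linear intensity values, with local background removed and no scaling from array to array. The authors' deposited table of log2 values covers the same arrays; its centring is unknown, and it served only as an alternative.

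Control spots were left out. RefSeq identifiers, without versions, were matched to a gene table of T2T-MMU8v2.0, used for names and gene order only: 942 of the 20217 probes matched, 898 with a gene name and 44 with a locus number. A gene was undetected if no spot was well above background on 8 arrays. Values are means of background-subtracted signal over a gene's spots.

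For the area comparison, the 2 spots of a probe were averaged as log2 processed intensity, outlier spots left out, and each array's 75th percentile was subtracted. Limma 3.58.1 in R 4.3.3 was fitted over all probes, with Benjamini-Hochberg adjustment at 0.05, and was tested on simulated data. Python 3.11.15 with pandas 2.3.3 handled the tables. Same-numbered arrays deviated together from their area means, with r = 0.726, 0.634, 0.169 and 0.858 for numbers 1 to 4 over 14683 probes. The block rests on this check, although A46 replicate 3 had a higher r, 0.481, with M1 replicate 4, and M1 replicate 3 a higher r, 0.259, with A46 replicate 2. The number goes with scan day: same-numbered arrays 1, 2 and 4 were scanned on 1 day each, number 1 also on 1 slide, and those numbered 3 on different days, so that number and scan day cannot be told apart for 3 of the 4 pairs. No label ties a number to an animal, so p-values without the block reflect only how these samples vary.

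The members, gene lists and roles were chosen with earlier results of these data known. Values by array are given for the first gene of each list with at least 3 undetected members, ranges for the next 2, and values for 5 genes just inside and 5 just outside the rule by number of spots, ties cut by symbol, and the 3 smallest p of each fit. PTCD3, SEL1L and OTX2 were added after their values were seen. Normexp used the median spot signal. Promoter and protein features were not analysed here, and 1 undetected gene is not reported here by name.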

Additional observations from a re-analysis of the deposited data

Results flagged for a closer look

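A single array stood apart from the rest of its area in 6 of the 68 sets of 4 values examined. The 3.4 that chance would give holds for independent sets not picked by their values. Here the sets share arrays and some genes were picked by their values, so 6 is not read against 3.4. In 5 of the 6 sets it was M1 replicate 4. There the lowest signal well above background was 24.8 units (others 6.20 to 6.66), the median negative control spot lay at -4.37 units (others -2.13 to -1.68), PPARG at -4.62 units (others 1.76 to 3.00), SEL1L at -4.90 units (others -0.0149 to 0.740) and UPK3BL2 at 5.09 units (others 0.559 to 1.27). AAMP stood apart on M1 replicate 1, at 30.03 units (others 3.58 to 6.64).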

How the results depend on the processing

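The count of 159 undetected genes was 160 to 165 when any 1 array was left out, 176 on M1 alone, 170 on A46 alone, 195 when both spots had to be called, 177 with locus names and 159 without outlier spots. It was 16 with the weaker call of a significant signal and 60 against the 99th percentile of the processed signal of negative control spots. It was 288 when a gene had to be called on all 4 arrays of an area. With reviewed identifiers alone, which leaves fewer genes to count, it was 49. The count of these genes' probes past the area test was 0 in each of 20 other fits, the replicate block (0) and the fits without 1 array (0 to 0) included, with adjusted p values of at least 0.0938. At an unadjusted p under 0.05 there were 0 to 31 probes. The 31, all higher in A46, came with array weights and were 19.1% of these genes' probes, against 20.8% of all probes. Of all probes at that threshold, 2683 of 4209 were higher in A46. There were 16 when scan day was a fixed block (14 higher in M1), 9.88% against 14.2% of all probes. Quantile normalization gave 14, 8.64% against 8.13% of all probes. The scan day as a random block was added after the data were seen, because the slide as a block could not be fitted. Over all probes these fits called 0 to 364. The signal over background limits any statement on the members.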
